A study of Mus musculus with 8 samples.

Results

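This section describes 7 genes that were lower in Cchcr1 mutant mouse skin than in wild type skin, namely Cyp2e1, Inmt, Gpx3, Pon1, Dpt, Nat8f6 and Adcy1. They were chosen by these measured values, a fall against wild type in normal skin or in hair loss skin of the mutants, so their differences from wild type are a description and no evidence for a group of genes. The 7 genes are measured by 8 probes, named through their RefSeq accessions, out of 30417 probes tested and 14774 named genes. A probe was tested when Feature Extraction, the scanner software, marked it as well above background on at least 2 of the 8 arrays, and all 7 genes passed.

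Total RNA from skin of C57BL/6N mice was measured on single-colour Agilent arrays, 1 array per sample. Of the 8 samples, 2 came from skin with hair loss in Cchcr1 mutants, 4 from normal skin of Cchcr1 mutants and 2 from normal skin of wild type mice. The labels state neither the allele carried by the mutants nor age, sex or skin site. Titles begin with Mutant097 (1 hair loss and 2 normal skin samples), Mutant113 (1 and 2) or Wild001 (2), with a letter S, A or B, and neither part is explained. Where samples share a number they may come from 1 animal, so the p-values measure the spread between these samples. All 8 arrays shared 1 slide and 1 scan, with both hair loss samples and Mutant097 normal skin in row 1, and Mutant113 normal skin and wild type in row 2.

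A level is the log2 of the processed intensity minus the 75th percentile of the array, so 0 is that percentile and a difference of 1 is a doubling. The 75th percentile ran from 83.1 to 211 intensity units, and 25421 to 30205 probes per array were well above background. Dermal fibroblast markers were detected in full, 14 of 14 tested genes on every array, as were 12 of 12 of interfollicular epidermis. Of 10 hepatocyte markers, 2 were tested at all. The Mutant113 samples differed from the others in the sex-linked transcripts: Xist was well above background on 3 of 3 Mutant113 arrays and on 0 of 3 Mutant097 and 0 of 2 wild type arrays, and Ddx3y showed the reverse.

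Cyp2e1 is a cytochrome P450 that oxidises ethanol and other small molecules, Inmt transfers methyl groups to indoles and other amines, and Nat8f6 belongs to a family of acetyltransferases related to those that finish mercapturic acids. Gpx3 is the secreted glutathione peroxidase, which reduces peroxides outside cells, and Pon1 is a lipoprotein-bound esterase that splits lactones and organophosphates. Such enzymes are best known from liver, kidney and lung, and skin also makes a set of them. Dpt encodes dermatopontin, a small dermal matrix protein that binds decorin and collagen, and Adcy1 a calcium-stimulated adenylyl cyclase that makes cyclic AMP.

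The 250 bases before the annotated start were available for 7 of 7 genes in a RefSeq promoter table (build GRCm38.p6). The 4 printed here belong to the genes that bound the patterns described below: Cyp2e1 and Inmt took separate values in the 3 groups, Gpx3 had overlapping values in both mutant groups, and Adcy1 was nearer to wild type in normal skin than in hair loss skin. Capitals mark TATAAA and CCAAT, read on either strand (ATTGG is CCAAT on the other strand). They come from chr7:140763569-140763818 (plus strand), chr6:55174991-55175240 (minus), chr11:54902604-54902853 (plus) and chr11:7063183-7063432 (plus).
Cyp2e1: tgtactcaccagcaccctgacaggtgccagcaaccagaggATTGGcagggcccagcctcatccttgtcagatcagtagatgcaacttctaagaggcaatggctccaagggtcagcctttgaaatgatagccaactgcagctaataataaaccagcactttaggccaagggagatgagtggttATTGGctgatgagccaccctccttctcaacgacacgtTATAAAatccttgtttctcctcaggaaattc
Inmt: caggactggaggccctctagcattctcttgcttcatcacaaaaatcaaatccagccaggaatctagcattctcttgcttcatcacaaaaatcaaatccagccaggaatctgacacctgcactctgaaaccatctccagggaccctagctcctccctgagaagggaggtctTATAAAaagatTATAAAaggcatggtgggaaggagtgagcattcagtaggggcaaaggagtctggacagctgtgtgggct
Gpx3: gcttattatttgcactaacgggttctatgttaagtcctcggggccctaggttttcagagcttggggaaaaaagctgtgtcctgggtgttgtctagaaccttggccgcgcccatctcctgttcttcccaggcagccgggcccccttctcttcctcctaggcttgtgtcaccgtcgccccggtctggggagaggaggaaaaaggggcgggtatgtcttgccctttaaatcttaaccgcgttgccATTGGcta
Adcy1: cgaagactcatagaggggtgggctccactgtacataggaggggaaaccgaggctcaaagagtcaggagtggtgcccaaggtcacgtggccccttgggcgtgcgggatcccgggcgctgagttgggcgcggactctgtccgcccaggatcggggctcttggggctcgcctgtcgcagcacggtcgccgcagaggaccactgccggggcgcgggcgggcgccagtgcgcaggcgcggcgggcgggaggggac
TATAAA begins 31 bases before the start of Cyp2e1, and at 80 and 69 bases before that of Inmt. It is also found on the other strand of the Nat8f6 window, so 3 of 7 windows hold it, against 12.4% of 32851 promoters of that length. CCAAT is found in 4 of 7 (Cyp2e1, Gpx3, Pon1 and Nat8f6), against 33.8%. AGGTCA, bound by nuclear receptors, and the E box CACGTG are each found in 1 of 7, that of Adcy1, where they overlap, against 14.0% and 6.02%. AGAACA, bound by the glucocorticoid receptor, is in 1 of 7 (Gpx3, other strand), against 16.1%, and the AP-1 letters TGANTCA are in 0 of 7, against 6.75%. The Adcy1 window is 71.2% G and C, and the other 6 windows are 47.6% to 55.2%, against a median of 52.4%. These matches describe letters in a window and show no binding.

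The oxidising and the methylating enzyme had intermediate levels in normal skin and their lowest levels in hair loss skin. Cyp2e1 was at 5.22 and 5.20 (log2 level) in wild type skin. In mutant normal skin it was at 3.12 and 3.0 for Mutant097 and at 2.29 and 3.44 for Mutant113, and in hair loss skin at 1.95 (Mutant097) and 1.72 (Mutant113). The 3 groups did not overlap. Its mean was lower than in wild type by 4.74-fold in normal skin (log2 difference -2.24, SE 0.302) and 10.4-fold in hair loss skin (-3.37, SE 0.349). In processed intensity the step ran from 3096 and 5880 units in wild type to 484 and 697 in hair loss skin, so the gene was still well above background on 8 of 8 arrays. The other Cyp2e1 probe, with the same accession, gave -2.33 (SE 0.281) in normal skin and -3.36 (SE 0.325) in hair loss skin.

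Inmt was at 3.95 and 3.86 in wild type skin. It was at 2.23 and 1.94 in Mutant097 normal skin, at 1.71 and 1.63 in Mutant113 normal skin, and at 1.27 and 0.78 in the hair loss samples. Again no group overlapped another, and within each title number the hair loss sample was the lowest. The difference from wild type was -2.03 (SE 0.232), 4.08-fold, in normal skin and -2.88 (SE 0.268), 7.36-fold, in hair loss skin.

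Nat8f6 came down to background in part of the mutant samples. It was at -0.33 and -1.06 in wild type skin, at -2.54 and -2.74 in Mutant097 normal skin and at -4.24 and -3.44 in Mutant113 normal skin. The hair loss samples were at -4.25 and -3.94. The sample at -4.24 and the hair loss sample at -4.25 were not well above background, so 3 of 4 normal skin and 1 of 2 hair loss arrays measured it. Both mutant groups lay below wild type, but they overlapped each other. Its differences from wild type were -2.55 (SE 0.472) in normal skin and -3.40 (SE 0.544) in hair loss skin.

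Gpx3, the secreted peroxidase, had much the same level in both mutant groups. It was at 6.14 and 5.83 in wild type skin and between 2.99 and 3.66 in all 6 mutant samples. Normal skin was at 3.54 and 3.66 (Mutant097) and at 3.49 and 2.99 (Mutant113), and hair loss skin at 3.29 and 3.43. Both hair loss samples fell inside the range of normal skin. The differences from wild type were -2.56 (SE 0.227) and -2.62 (SE 0.262), or 5.91-fold and 6.15-fold.

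Pon1, the lactonase, varied widely among the normal skin samples. Its level in wild type skin was 0.83 and 1.17. Normal skin of Mutant097 was at -1.50 and -1.29, whereas that of Mutant113 was at -3.55 and -2.38, and the hair loss samples were at -3.77 and -3.27. The Mutant113 sample at -3.55 was lower than the hair loss sample of the same number, and the Mutant097 hair loss sample was not well above background. The differences from wild type were -3.18 (SE 0.588), 9.05-fold, and -4.52 (SE 0.679), 22.9-fold. Pon1 is printed at 10 spots per array, of which 7 to 10 were used, and their SD within an array was 0.067 to 0.458 log2 units, the highest on the array where it was not above background.

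Dpt, the dermal matrix gene, was at 2.93 and 3.32 in wild type skin. It was at 1.43 and 1.63 in Mutant097 normal skin, at 1.25 and 1.67 in Mutant113 normal skin, and at 0.90 and 1.58 in hair loss skin. The hair loss sample of Mutant097 was below all 4 normal skin samples, and that of Mutant113 lay among them. Differences from wild type were -1.63 (SE 0.248), 3.10-fold, and -1.88 (SE 0.286), 3.69-fold. Over its 9 to 10 spots per array the SD was 0.049 to 0.0818, smaller than the SD of 0.194 among the 4 normal skin samples.

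Adcy1 had the opposite balance. It was at 0.46 and 0.05 in wild type skin and at -0.77, -0.22, -1.56 and -0.63 in the 4 mutant normal skin samples, the first pair from Mutant097. In hair loss skin it was at -3.03 and -2.53, below every normal skin sample. The difference from wild type was -1.04 (SE 0.366), 2.06-fold, in normal skin and -3.03 (SE 0.422), 8.17-fold, in hair loss skin.

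**Figure D1:**
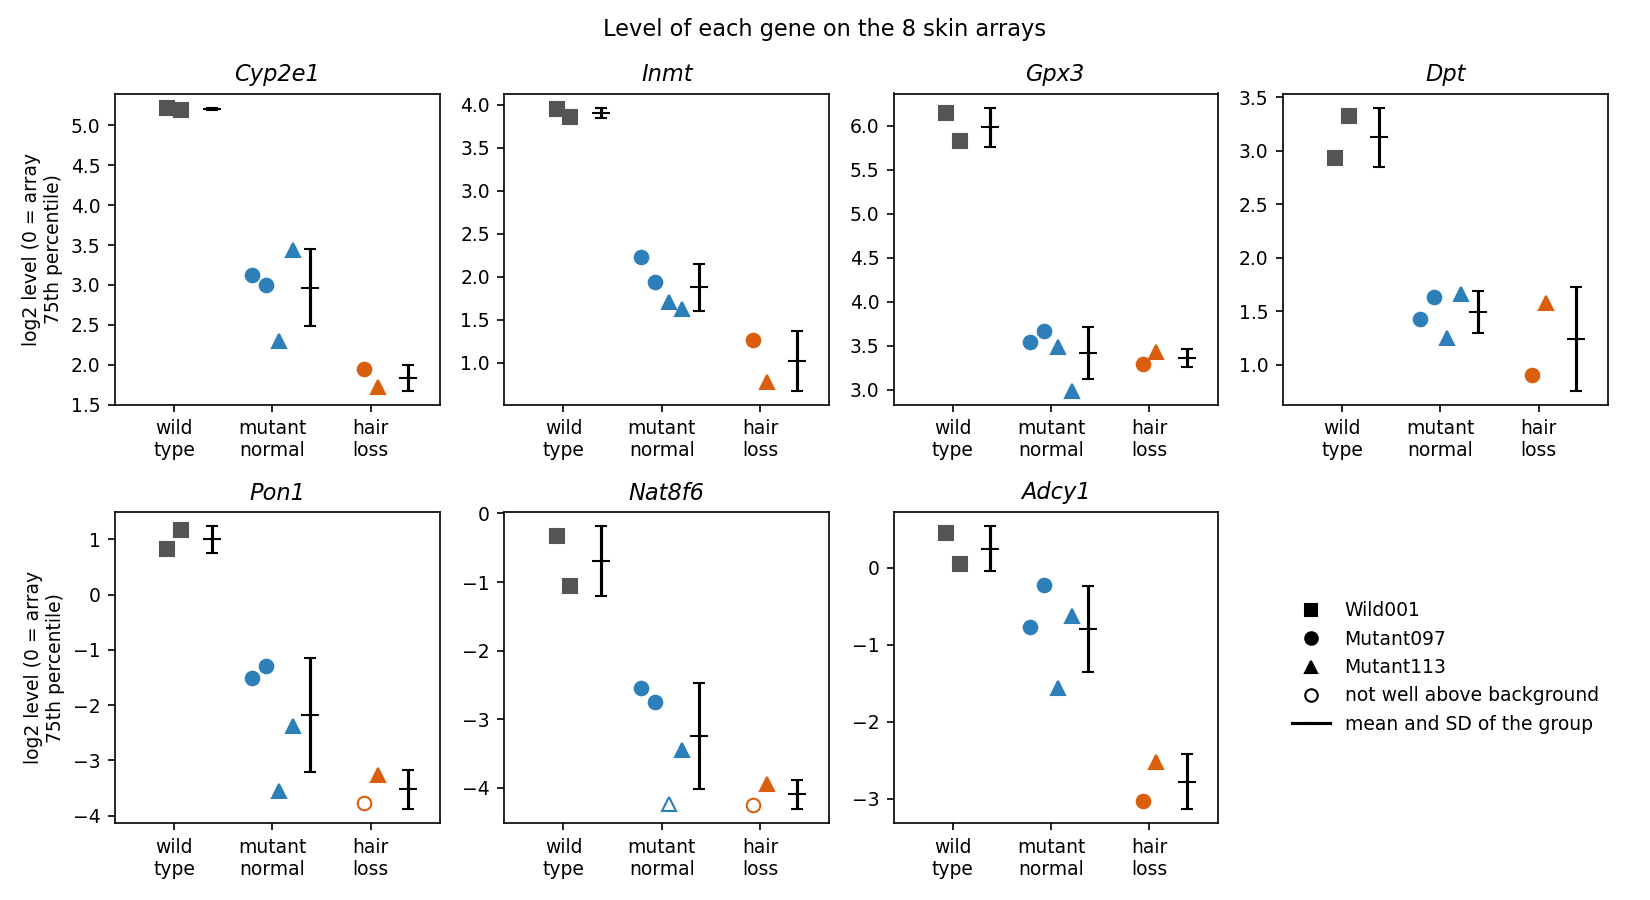
Log2 level (y axis, 0 is the 75th percentile of the array) of each gene on the 8 arrays by group (x axis), with squares for Wild001, circles for Mutant097 and triangles for Mutant113, open where not well above background; bars give the mean and SD of 2, 4 and 2 arrays. In 7 of 7 genes all mutant points lie below the wild type points, and only in Cyp2e1, Inmt and Adcy1 do both hair loss points lie below all 4 normal skin points.

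Against wild type, 4 of 7 genes (Cyp2e1, Inmt, Gpx3 and Dpt) were past the threshold in normal skin, where 0.118% of all probes were called lower, and 7 of 7 in hair loss skin, where 0.427% were. These contrasts chose the genes, and nothing is read from the counts. The threshold was an adjusted p of 0.05 (limma, Benjamini-Hochberg over 30417 probes): in normal skin Dpt lay just inside at 0.0403 and Pon1 and Nat8f6 just outside, each at 0.0678, and in hair loss skin Nat8f6 lay nearest at 0.0352. In 7 of 7 genes every mutant array was below both wild type arrays, as was true of 14.8% of all probes for normal skin and 28.5% for hair loss skin. The wild type group rests on 2 arrays of 1 number: without wild type replicate 1 the 7 hair loss calls ended (adjusted p 0.0691 to 0.192), as they did without wild type replicate 2 (0.0601 to 0.0744) and without hair loss replicate 1, which is Mutant097 (0.0609 to 0.173). Without hair loss replicate 2 those of Pon1 and Nat8f6 ended (0.0523 and 0.0598), and without mutant normal skin replicate 4 those of Pon1, Dpt and Nat8f6 (0.0502, 0.0505 and 0.0557). The 4 normal skin calls ended without wild type replicate 1 (0.0779 to 0.178) and without replicate 2 (0.0759 to 0.105). The Dpt call there also ended without any of the 4 normal skin arrays (0.0678 to 0.0927) and that of Cyp2e1 without mutant normal skin replicate 2 (0.0527), while Pon1 was called without replicate 3 (0.042). With 1 mean per title number and group as a sample, 0 of 7 were called in hair loss skin (adjusted p 0.159 to 0.24) and 0 of 7 in normal skin, while the log2 differences stayed the same. A background correction that adds an offset (normexp) gave smaller differences for the genes close to background: Pon1 was at -1.84 and -2.28 in normal and hair loss skin, Nat8f6 at -1.05 and -1.23, and Adcy1 at -1.68 in hair loss skin. Pon1 was then also called in normal skin (adjusted p 0.0205).

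**Figure D2:**
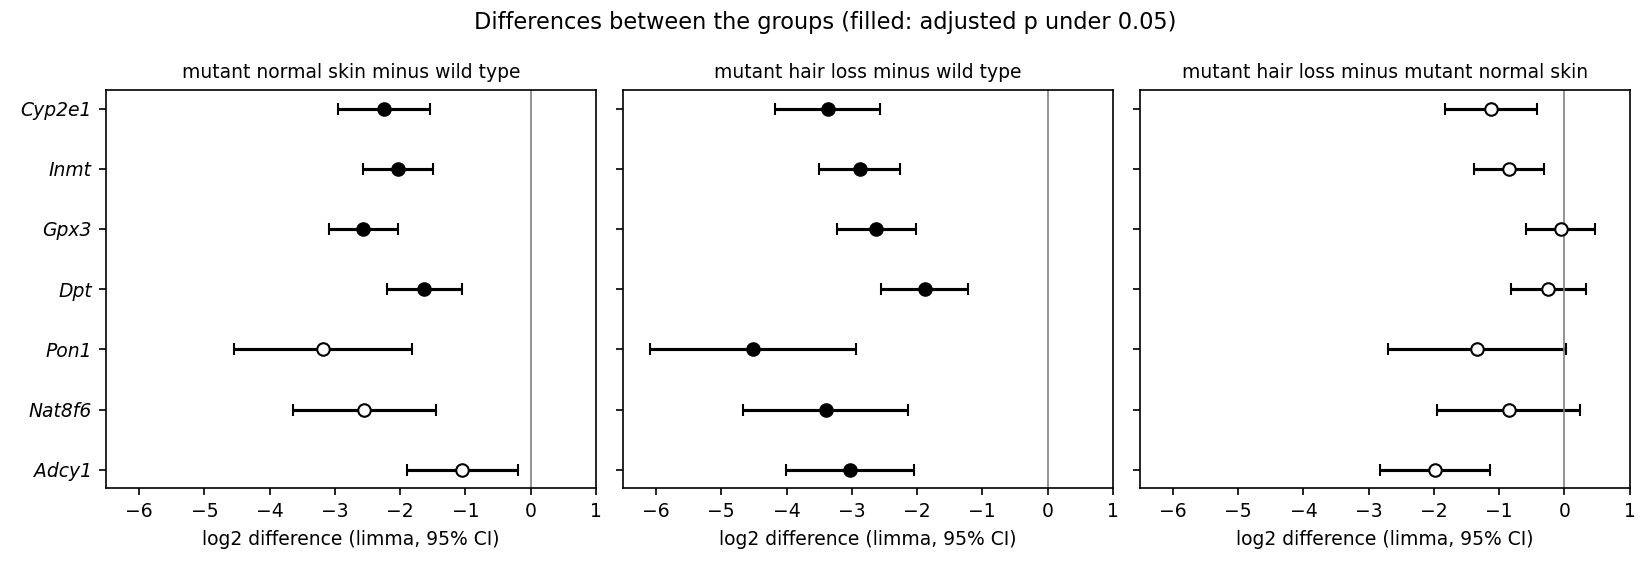
Log2 differences between groups (x axis) for the 7 genes (y axis), with 95% confidence intervals from limma over 8 arrays, filled where the adjusted p over 30417 probes was under 0.05. The hair loss minus normal skin intervals exclude 0 for Cyp2e1, Inmt and Adcy1, with no call after adjustment, and are centred close to 0 for Gpx3 (-0.06).

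The next question was whether the genes were lower again in hair loss skin than in normal skin of the same mutants, a contrast that did not choose them, though its groups did. The means were in the order wild type, normal skin, hair loss skin in 7 of 7 genes, as in 33.6% of all probes. Among the 130 probes called lower in hair loss skin, which are picked in the same way, 96.2% had normal skin in between, so the order is what that choice gives. No gene was called between hair loss and normal skin (limma, smallest adjusted p 0.71), where 0 of 30417 probes (0%) were called. At an unadjusted p under 0.05, 1582 of 30417 probes (5.2%) differed.

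Adcy1 had a step from normal to hair loss skin of -1.99 (95% confidence interval -2.83 to -1.14), adjusted p 0.71 (limma), and ranked 21 by p among 30417 probes. It was called against wild type in hair loss skin only, which makes a large step likely, so nothing is read from the rank. The step of Cyp2e1 was -1.13 (-1.83 to -0.43) and that of Inmt -0.85 (-1.39 to -0.31), both at an adjusted p of 0.755 (limma). In these 3 genes both hair loss samples lay below all 4 normal skin samples, a separation seen in 6.68% of all probes and in 71.5% of the 130 probes called lower in hair loss skin. Pon1 and Nat8f6 had estimates of -1.34 (-2.71 to 0.03) and -0.85 (-1.95 to 0.24), with adjusted p of 0.961 and 0.991. With normexp the steps were -0.43 for Pon1, -0.19 for Nat8f6, -0.96 for Adcy1 and -1.04 for Cyp2e1, so those of Pon1, Nat8f6 and Adcy1 were smaller by over 1.5 times and that of Adcy1 was no longer larger than that of Cyp2e1. For Dpt the estimate was -0.25 (-0.83 to 0.32) and for Gpx3 -0.06 (-0.58 to 0.47). A further fall in Gpx3 of more than 0.58 log2 units lay outside this interval. The interval takes samples that share a title number as separate, so a larger fall is not excluded. Without hair loss replicate 1 the Gpx3 estimate turned to 0.014 and that of Dpt to 0.089, and without mutant normal skin replicate 2 that of Gpx3 turned to 0.023.

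The share of the hair loss difference already present in normal skin (the log2 difference of normal skin as a percentage of that of hair loss skin) put the genes in an order. It was 97.8% for Gpx3 (SD 11.3 over the 4 normal skin arrays), 86.7% for Dpt (SD 10.3), 74.9% for Nat8f6 (SD 22.6), 70.4% for both Inmt (SD 9.43) and Pon1 (SD 22.7), 66.5% for Cyp2e1 (SD 14.4) and 34.5% for Adcy1 (SD 18.6). Nat8f6, Inmt, Pon1 and Cyp2e1 differed from each other by less than any of their SDs, and the arrays of Dpt (77.4% to 99.7%) overlapped those of Gpx3 and Nat8f6. All 4 Adcy1 arrays (15.4% to 59.9%) lay below all 4 arrays of Gpx3 (88.6% to 114%). For the 130 probes called lower in hair loss skin the median share was 57.5% with quartiles of 39.8% and 75.1%, 51 of them were below 50% and 14 above 90%. Adcy1 was thus below the lower quartile of those probes, Gpx3 and Dpt above the upper quartile, and Cyp2e1, Inmt, Pon1 and Nat8f6 between the quartiles. The share is made from the differences against wild type that chose the genes. Gpx3, Dpt, Cyp2e1 and Inmt were called in normal skin, which makes a high share likely. Adcy1, Pon1 and Nat8f6 were called in hair loss skin only, which makes a lower share likely. The 130 probes were picked by hair loss skin alone, so nothing is read from the order or the placement. The placement also holds for the main processing only. With normexp the share was 42.8% for Adcy1, 80.9% for Pon1 and 84.8% for Nat8f6. By number (Mutant097, then Mutant113) it was 71.8% and 108% for Dpt, 22.7% and 48.4% for Adcy1, and 88.5% and 108% for Gpx3. It was 65.9% and 67.2% for Cyp2e1, and 69% and 71.6% for Inmt.

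**Figure D3:**
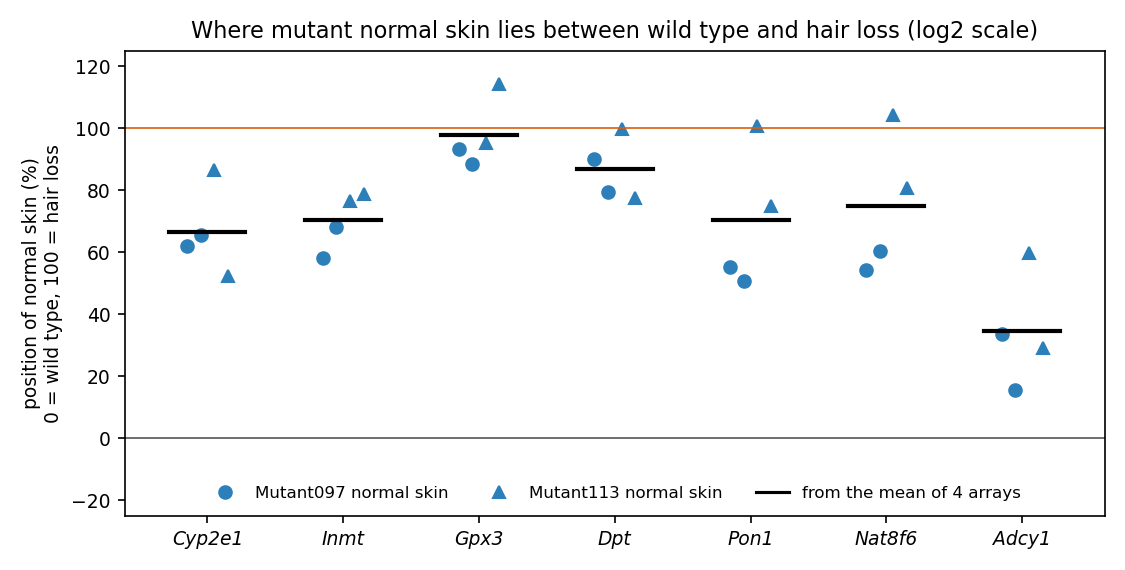
Position of each of the 4 mutant normal skin arrays (circles Mutant097, triangles Mutant113) between the wild type mean (0%) and the hair loss mean (100%) on the log2 scale, for the 7 genes, with a line at the value from the mean. Gpx3 lies close to 100% and Adcy1 at 34.5%, and in Inmt, Gpx3, Pon1 and Nat8f6 both Mutant113 points lie above both Mutant097 points.

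The estimated step also varied with the title number. Within Mutant097 the hair loss sample was lower than the normal skin mean in 7 of 7 genes, as in 53.3% of all probes, by -2.54 for Adcy1 (SE 0.47), -2.38 for Pon1 (SE 0.494), -1.60 for Nat8f6 (SE 0.446), -1.11 for Cyp2e1 (SE 0.466), -0.82 for Inmt (SE 0.223), -0.63 for Dpt (SE 0.295) and -0.31 for Gpx3 (SE 0.291). Within Mutant113 the differences were -1.43, -0.30, -0.10, -1.14, -0.89, 0.12 and 0.20 in the same order. The estimates for Cyp2e1 and Inmt were thus close in both numbers, and that for Adcy1 exceeded 1 log2 unit in size in both. Those for Pon1 and Nat8f6 were over 1 log2 unit in size in Mutant097 and under 1 in Mutant113.

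These differences between numbers were tested in a model of group and number over all 8 arrays. Each number has 1 hair loss sample, so the spread comes from the pairs of normal skin and wild type samples, and the lone hair loss samples are assumed to vary like them. No gene was called for a difference in the step (0% of probes called): Pon1 differed by 2.07 (95% confidence interval 0.33 to 3.82, adjusted p 0.465, limma), Nat8f6 by 1.50 (-0.08 to 3.08, adjusted p 0.551) and Cyp2e1 by -0.03 (-1.68 to 1.62). In normal skin alone, Mutant113 was below Mutant097 by -1.57 for Pon1 (-2.58 to -0.56, adjusted p 0.193, limma) and -1.20 for Nat8f6 (-2.11 to -0.29, adjusted p 0.235). None of the 7 was called there, against 0.266% of all probes. Their normal skin values thus lay close to hair loss values in Mutant113 (92.9% and 96.9% of the hair loss difference of that number) and midway in Mutant097 (50.2% and 54.9%). The title number moved with the Xist signal and with the slide row of the normal skin samples, and the part of either in these values was not tested.

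Among the normal skin samples, Mutant113 sample B (replicate 3) was the lowest for Cyp2e1, Pon1, Dpt, Nat8f6 and Adcy1, and Mutant113 sample A (replicate 4) for Inmt and Gpx3. Of the 7 genes 0 were called for A minus B within numbers (limma, smallest adjusted p over all probes 0.311, 0% of probes called). Their estimates ran from -0.23 (Gpx3) to 0.57 (Pon1, 95% confidence interval -0.07 to 1.22).

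With the slide row as a block, normal skin is compared with wild type inside row 2 only (Mutant113) and hair loss skin with normal skin inside row 1 only (Mutant097 normal skin). The Mutant113 samples had Xist well above background and the wild type samples did not. Inside row 2 genotype thus cannot be told apart from the Xist signal. In row 1, hair loss replicate 2 is Mutant113 and is set against Mutant097. The differences in row 2 were -2.34 for Cyp2e1, -2.24 for Inmt, -2.75 for Gpx3, -3.96 for Pon1, -1.67 for Dpt, -3.15 for Nat8f6 and -1.35 for Adcy1. In row 1, hair loss minus normal skin was -1.23, -1.06, -0.24, -2.12, -0.29, -1.45 and -2.29 in that order, with adjusted p of 0.168 to 0.775 (limma). The direction was the same as over both rows in 7 of 7 genes. Against wild type it could not differ, since every mutant array was below both wild type arrays, and nothing is read from it. Mutant097 normal skin, like wild type, had no Xist signal above background, but lay in row 1. Its differences from wild type were -2.15, -1.82, -2.38, -2.39, -1.60, -1.95 and -0.74 in the same gene order. Inmt and Gpx3 were called there (adjusted p 0.0219 and 0.0218, limma), where 0.217% of all probes were called lower. These arrays are among those that chose the genes, so nothing is read from the calls. Normal skin calls rose to 6 of 7 with the block, all but Adcy1, and the hair loss minus wild type call of Dpt ended (adjusted p 0.0555, limma). Calls over all probes rose with the block too (counts in the last section), and nothing is read from the count of 6.

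Over the 8 arrays the members followed each other closely, which their choice makes likely, since each has 2 high wild type values. Pearson's r between a gene and the mean profile of the 7 (each scaled to an SD of 1) ran from 0.871 for Adcy1 to 0.985 for Pon1. The closest pair was Pon1 and Nat8f6 (r = 0.98) and the least alike was Gpx3 and Adcy1 (r = 0.652). Among 12185 other named genes well above background on 8 of 8 arrays, the profiles most like the mean were those of Cdh13, a cadherin anchored by a lipid (r = 0.994), the transcription factor gene Irf4 (0.986), Herpud1, of the endoplasmic reticulum stress response (0.984), Snx33 (0.981), Clec3b (0.978), Plpp1 (0.978), Golga3 (0.977) and Grhpr (0.977). Irf4 was at a mean level of 1.72 in wild type, 0.42 in normal skin and 0.05 in hair loss skin, and Cdh13 at 4.11, 3.37 and 3.01.

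For single genes, the profile most like Cyp2e1 was that of Clec3b (r = 0.994), which encodes tetranectin and is used as a marker of dermal fibroblasts. It was followed by Trip10 (0.98). Inmt was closest to Tmem150a (0.983) and Optn (0.975), and Pon1 to Plpp1 (0.994) and Ddit3 (0.991). Klk1b3 was among the genes most like Gpx3 (0.973), and Tmem106a among those most like Dpt (0.988). Nat8f6 was closest to Ccnd3 (0.986) and to Prdx6 (0.982), a peroxiredoxin, and Adcy1 to Igfbp6 (0.984) and Klf9 (0.984). All these values are over 8 arrays that share 1 slide and the same split between wild type and mutant samples.

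Few relatives of these genes passed the test, and none of the enzymes did so as lower. Few of all 14774 genes were called lower (14 in normal skin and 57 in hair loss skin), so nothing is read from this. Aox3, of the oxidation list, lay just outside at -1.95 in normal skin and -1.92 in hair loss skin (adjusted p 0.0509 and 0.056, limma). Of 25 tested genes for oxidation (other cytochromes P450, flavin monooxygenases and partners), 0 were called in normal skin, and 1 was called in hair loss skin, Cyp2s1, an epithelial cytochrome P450, which rose by 1.11 (SE 0.202, adjusted p 0.0486, limma). The median difference of the list was -0.41 in both comparisons, against 0.02 over the 14774 genes, where 98 were called higher and 14 lower in normal skin, and 182 and 57 in hair loss skin. Of 35 conjugating enzymes (glutathione, sulfate, glucuronide, methyl and acetyl transferases) 0 were called in either comparison, with medians of -0.09 and -0.35. Lower on average were 22 and 24 of them, and 19 of 25 for oxidation in each comparison, against 7057 and 7208 of all 14774 genes. The antioxidant list had 0 of 31 called and medians of 0.03 and -0.06, and the list of hydrolysis and aldehyde metabolism 0 of 31 and medians of -0.24 and -0.27. Lower on average were 15 and 16 antioxidant genes, and 22 and 18 of the latter list. Summed linear levels were 265.6 to 269.2 in wild type and 153.9 to 262.6 in mutant samples for oxidation. For conjugation they were 329 to 357.9 and 249.9 to 301.8. They were 833 to 923 and 713 to 798 for antioxidants, and 355 to 373 and 239 to 312 for hydrolysis. Mean log2 levels of each list overlapped between wild type and mutant arrays.

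Close paralogs are given here by name after their values were seen. Pon2 and Pon3 differed from wild type in normal skin by 0.11 and -0.35, and in hair loss skin by 0.44 and -0.18, and passed no threshold. Of the other Gpx genes tested, none was called: the differences in normal and hair loss skin were -0.28 and -0.31 for Gpx1, -0.10 and -0.13 for Gpx4, -0.90 and -1.01 for Gpx7, and -0.98 and -1.20 for Gpx8, while those of Gpx2 were 2.10 and 3.66 (adjusted p 0.201 and 0.0656, limma). Of the Nat8 family 4 genes were tested besides Nat8f6 and 0 were called, with Nat8 at -1.74 and Nat8f5 at -1.61 in normal skin, Nat8l at -0.19 and Nat8f1 at 0.20. Nat8f5 was well above background on 2 of 2 wild type arrays but on 1 of 4 normal skin and 1 of 2 hair loss arrays. How far the probes tell the genes of this family apart is not known here. Of 17 adenylyl cyclases and cyclic AMP phosphodiesterases 0 were called, with medians of -0.24 and -0.52, and Adcy2 had the lowest difference of the other cyclases tested in hair loss skin at -1.19 (adjusted p 0.0711).

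Of 32 tested dermal matrix genes other than collagens, 25 had a negative difference in normal skin and 26 in hair loss skin, with medians of -0.80 and -0.97, and 0 were called in normal skin. Over all 14774 genes, 7057 and 7208 had a negative difference. In hair loss skin Ogn, the proteoglycan osteoglycin, fell by 1.73 (SE 0.29, adjusted p 0.0392, limma), and Tnc, the matrix protein tenascin C, was called higher (adjusted p 0.0436). Tnc was well above background on 0 of 2 wild type arrays, 3 of 4 normal skin arrays and 2 of 2 hair loss arrays. Decorin, the partner of dermatopontin (Dcn), was among the brightest genes of that list and differed by -0.70 in normal skin and -0.97 in hair loss skin, neither called.

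**Figure D4:**
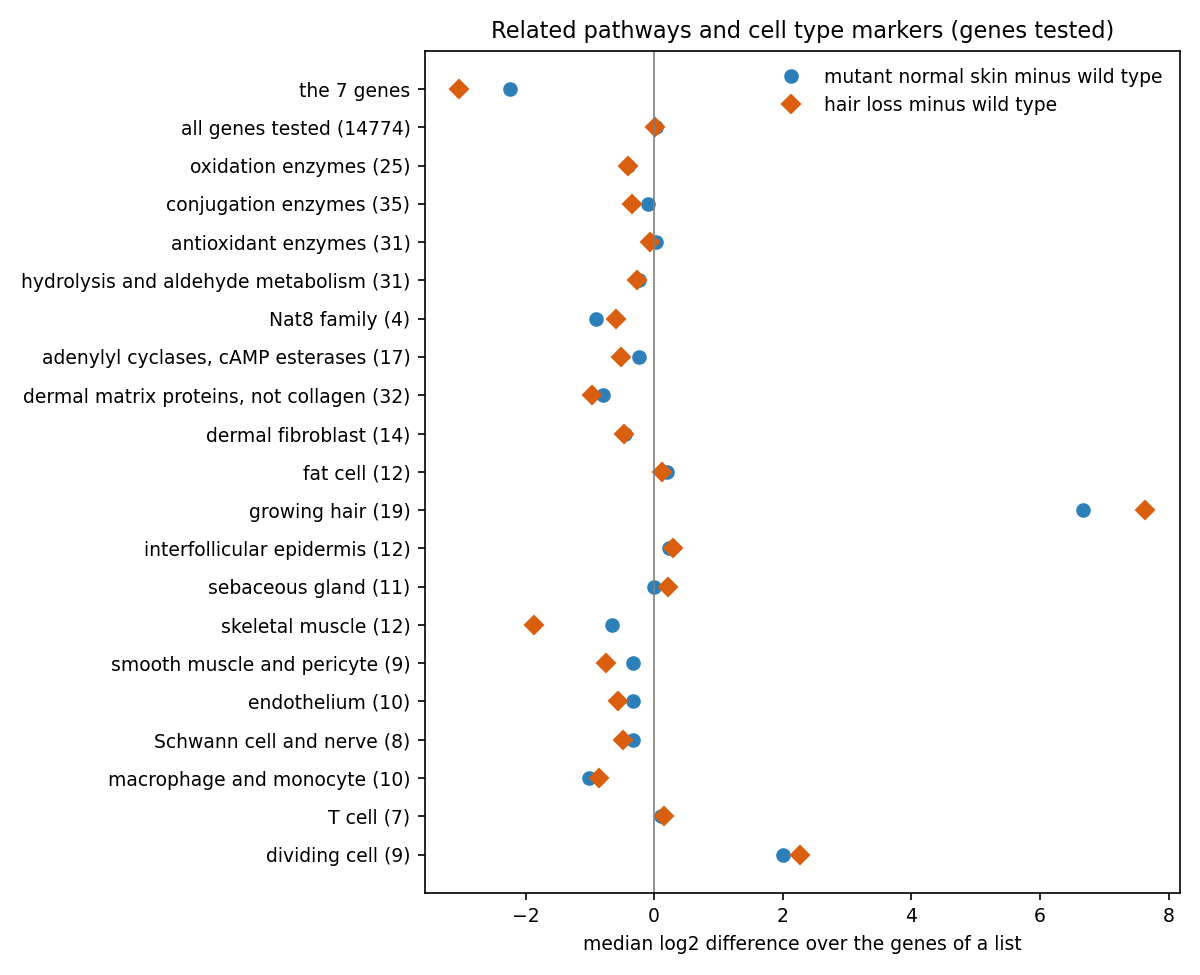
Median log2 difference (x axis) over the tested genes of each list (y axis, number of genes in parentheses) in mutant normal skin minus wild type (circles) and hair loss minus wild type (diamonds). The 7 genes, chosen for their fall, are at -2.24 and -3.03, the enzyme lists are between -0.52 and 0.03 apart from the 4 Nat8 genes (-0.90 and -0.59), and growing hair is at 6.67 and 7.64.

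Markers of other structures also differed between the groups, and those of growing hair and of dividing cells were higher where the 7 genes were lower. Of 19 markers of growing hair (hair matrix, shaft and inner root sheath), 13 were called higher in normal skin and 15 in hair loss skin, and 0 lower. Their summed linear level was 9.05 to 13.2 in wild type, 596 to 2773 in mutant normal skin and 1790 to 4241 in hair loss skin, in multiples of the 75th percentile. Dividing cell markers had medians of 2.00 and 2.26, with 9 of 9 higher on average (7717 and 7566 of all 14774 genes were) and 0 called. The part of hair growth in the 7 genes was not tested, and it cannot be told apart from genotype in the comparisons with wild type, since 0 wild type samples had a hair marker sum in the range of the mutants.

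Dermal fibroblast markers had a summed level of 1112 to 1678 in wild type, 598 to 1167 in normal skin and 746 to 885 in hair loss skin. Of 14 tested, 11 were lower on average in each comparison, with a median of -0.46 in both, and 1, Clec3b, was called lower, by -1.53 in normal skin and -2.36 in hair loss skin. Of all 14774 genes, 7057 and 7208 were lower on average. Macrophage and monocyte markers summed to 196 to 214 in wild type, 91.3 to 138 in normal skin and 100.2 to 117 in hair loss skin, with 10 of 10 lower on average and 0 called. Skeletal muscle markers summed to 1995 to 2067 in wild type, 808 to 2048 in normal skin and 350 to 1008 in hair loss skin, with a median difference of -0.66 and -1.86 and 1 of 12 called lower, Mylpf in hair loss skin. Fat cell markers overlapped between all groups (463 to 464 in wild type, 393 to 556 and 416 to 554), with medians of 0.21 and 0.12. In whole skin, fewer cells of a type and less RNA per cell cannot be told apart, and the part of these cell types in the fall of the 7 genes was not tested.

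Interfollicular epidermis (12 tested, medians 0.23 and 0.29), endothelium (10 tested, -0.33 and -0.57), smooth muscle and pericyte (9 tested, -0.33 and -0.74), Schwann cell and nerve (8 tested, -0.33 and -0.48) and T cell (7 tested, 0.11 and 0.16) had 0 called genes in both comparisons. Of 11 sebaceous gland markers 1 was called, Scd3, lower in hair loss skin by -1.86 (adjusted p 0.0283, limma), with list medians of -0.0011 and 0.21. The 2 hepatocyte markers that were tested went opposite ways, with Apoa2 at -0.66 and -0.96 and Serpina1a at 2.57 and 3.86, and 0 calls.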

How the data were processed

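Per the file headers, the authors' scanner files hold a processed intensity per spot, which Feature Extraction 11.5.1.1 had corrected for background, and the array design names build mm9. The deposited matrix holds log2 values: for all 55603 probes compared, it lay within 0.01 of the log2 processed intensity after 1 shift per array, so it is the same signal. Control spots and 118 to 210 flagged spots per array were left out, the rest averaged by probe, and the 75th percentile of each array subtracted. Probes well above background on at least 2 arrays were tested (30417). Symbols came from a RefSeq gene table (GRCm38.p6) by accession without version, so positions from that table are not given. One linear model of 3 groups was fitted to all 8 arrays with limma 3.58.1 in R 4.3.3 (5 residual and 2.71 prior degrees of freedom), two-sided, with Benjamini-Hochberg adjustment over all probes and calls at 0.05. Models of group by title number, and of letters with number as a block, were fitted the same way. The fits were tested on simulated data with independent noise on each array, which does not cover samples that come from 1 animal. With 2 to 4 arrays per group, their number limits the precision.

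The 7 genes, and the gene lists, were chosen with earlier results of these data known. Named genes were the 7, the called genes of each pathway list (at most 3 each way), its brightest genes, and the genes with the highest Pearson's r over the 8 arrays (8 for the mean profile, 2 per gene), of which some are not reported here. Where a gene has several probes, the brightest stands for it. Alternatives were other scaling, normalization, filters, blocks and subsets of the arrays.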

Additional observations from a re-analysis of the deposited data

How the results depend on the processing

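The direction against wild type was the same for the 7 genes under every alternative run. Every mutant array was below both wild type arrays in these genes, so leaving out arrays could not change it, and nothing is read from it. The log2 differences of hair loss minus normal skin changed sign only for Gpx3 (0.014 without hair loss replicate 1 and 0.023 without mutant normal skin replicate 2, in a range of -0.20 to 0.023 when 1 array was left out, and 0.20 with Mutant113 and wild type only) and Dpt (0.089 without hair loss replicate 1, in a range of -0.59 to 0.089, and 0.12 with Mutant113 and wild type only). With the title number as a replicate block, 0 probes were called between hair loss and normal skin, so no call changed in that comparison. The numbers were not taken as pairs of animals, since the labels do not say so. The number of probes called in normal skin against wild type (211) was 128 with no filter, 64 with only probes above background on all arrays, 856 with the slide row as a block, 0 with 1 mean per number and group, 137 with Mutant097 and wild type only and 619 with Mutant113 and wild type only, and 0 to 191 when 1 array was left out. In hair loss skin (432) the counts were 183 with no filter, 1332 with the row as a block, 0 with 1 mean per number and group, 706 with only the 2 groups compared, 651 with Mutant097 and wild type only and 0 to 708 when 1 array was left out. Between hair loss and normal skin (0) leaving out an array gave 0 to 11. Between the numbers in normal skin (81) the counts were 465 with normexp background correction, 146 with quantile normalization, 44 with the percentile over probes detected on all arrays, 19 with no filter, 30 with only probes above background on all arrays and 6 to 99 when 1 array was left out. For the difference in step between numbers (0) they were 287 with normexp, 3 with quantile normalization, 4 with only probes above background on all arrays and 0 to 25, and for letters (0) 39 with normexp and 0 to 1. The cause of these changes was not tested. With no filter, the Dpt calls and the Nat8f6 call in hair loss skin ended (adjusted p 0.0622 to 0.0958, limma). With normexp the difference of Pon1 was -1.84 in normal skin and -2.28 in hair loss skin, that of Nat8f6 -1.05 and -1.23, and that of Adcy1 -1.68 in hair loss skin. With the title number as a random block the Dpt call in normal skin ended (adjusted p 0.0569), as did its hair loss call with only the 2 groups compared (0.0678). Normexp on the mean spot signal was not run because the files used here have the median signal, and the run on the median signal, and the alternatives for numbers and letters, were chosen after seeing the data.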
